A study of Mus musculus with 6 samples.

Results

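Matricellular proteins, matrix proteases and their inhibitors were followed in denervated soleus muscle through 10 genes. These were Timp1, Timp2, Mmp2, Mmp14, Thbs1, Thbs2, Sparc, Tnc, Fn1 and Lox, chosen by name, with earlier results of these data known. All 10 were found among the 21572 gene symbols of the deposited tables, with a value in each of 6 libraries, and all 10 passed the filter on low values. The soleus is a slow hindlimb muscle, and the mice were adult C57BL/6 animals. The libraries form 3 groups of 2: muscle labelled Dach2-/-/Hdac9-/- (called DKO-labelled here) that had been denervated for 3 days, wild-type (WT) muscle denervated for 3 days, and innervated WT muscle. Dach2 encodes a transcriptional co-factor, and Hdac9 encodes a histone deacetylase. No innervated muscle of the knockout was analysed here, so in the DKO-labelled libraries the genotype is seen only together with denervation. How the nerve was interrupted, in which cells the 2 genes were deleted, and whether the libraries of a group came from separate animals is not given in the sources used here. The p-values therefore cover only library-to-library spread, which may be technical.

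The matrix around muscle fibres is laid down mainly by fibroblasts and remodelled by secreted and membrane-bound proteases. Fibronectin (Fn1) is an early scaffold to which cells attach through integrins, and lysyl oxidase (Lox) cross-links collagen and elastin. Mmp14 is a membrane-anchored protease that activates the secreted gelatinase Mmp2, a step in which the inhibitor Timp2 takes part, while Timp1 and Timp2 both block active metalloproteinases. Thrombospondins (Thbs1, Thbs2), Sparc and tenascin C (Tnc) are matricellular proteins, which modulate how cells bind matrix and growth factors and build little of its structure.

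Levels are the authors' FPKM, fragments scaled by transcript length and library. The libraries held from 25529434 to 46305449 assigned fragments. Each change is a log2 fold change with its SE, from the quasi-likelihood test of edgeR over 12247 genes, and the Benjamini-Hochberg adjusted p-value was called at 0.05. The test used the deposited fragment counts, and CPM stands for counts scaled to library size. The first library of each group has a sample number from 14043 to 14045 and the second from 14049 to 14051, so each run of consecutive numbers holds 1 library of each group. The labels do not call these runs a batch. Differences within each run, and a second edgeR fit with the run as a block, are given beside the results. Dach2 had 0.961 and 0.681 FPKM in the DKO-labelled libraries, 0.519 and 0.536 FPKM in denervated WT and 3.85 and 4.29 in innervated WT, so its level did not mark the labelled knockout among the denervated libraries. Hdac9 had 0.534 and 0.181 FPKM in the DKO-labelled libraries, 1.83 and 0.285 in denervated WT and 4.10 and 3.14 in innervated WT. Of 10 genes of muscle fibres, 9 were present, with summed levels of 12500 and 14270 FPKM in DKO-labelled, 16350 and 15200 FPKM in denervated WT and 38720 and 48080 FPKM in innervated WT muscle. The other, Acta1, is listed at 0 in every library, so an exact 0 in these tables can be a failed estimate. No value of the 10 members was 0.

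At 3 days after denervation, WT soleus carried more Timp1 and less Thbs2 than innervated WT soleus. Timp1 rose 5.12-fold and Thbs2 fell 2.36-fold. The size of the Timp1 change rests on which denervated WT library is kept: its log2 fold change of 2.36 was 1.27 without the first and 2.95 without the second, past the threshold both times. Of the other members, Lox had a positive fold change, and Timp2, Mmp2, Mmp14, Thbs1, Sparc, Tnc and Fn1 had negative ones, none past the threshold when the groups alone were fitted. Over all genes tested, 14.4% were called higher and 14.3% lower in this comparison, so 1 member called in each direction among 10 is near the background. The median log2 fold change of the 10 was -0.73, beside 0.00 for all genes tested. Fewer cells of a type and less RNA per cell cannot be told apart in whole muscle.

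**Figure D1:**
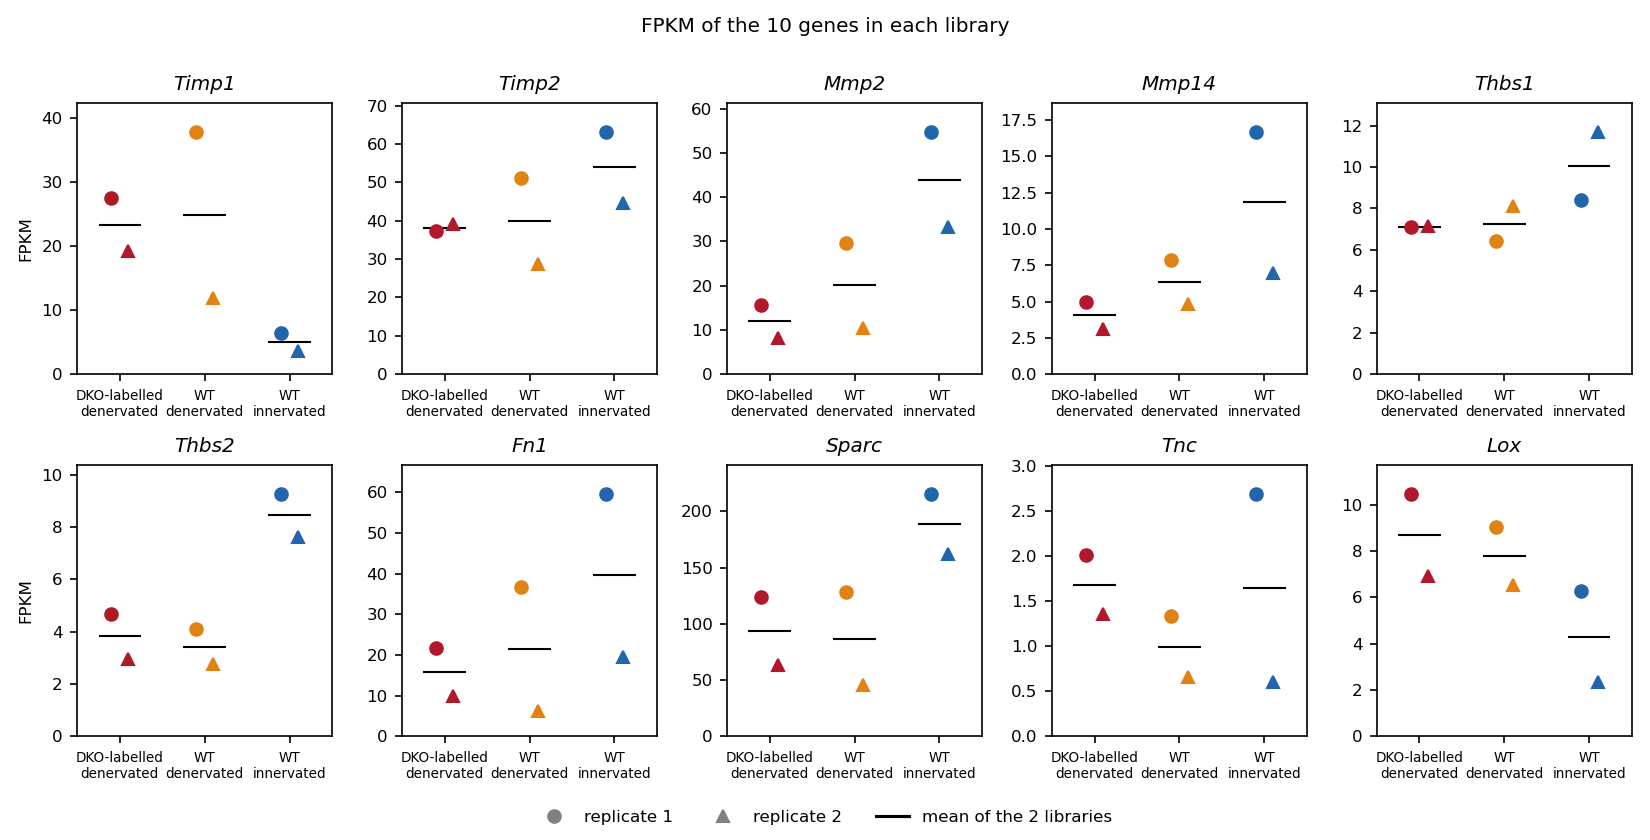
FPKM of each of the 10 genes (y axis, one scale per panel, starting at 0) in the DKO-labelled denervated, WT denervated and WT innervated libraries; circles are the first library of a group, triangles the second and bars their mean. Timp1 was at 11.8 FPKM or more in the 4 denervated libraries and at 6.48 or less in the innervated ones, while for most other genes the circle lies above the triangle within a group.

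Among the inhibitors, Timp1 had 37.8 and 11.8 FPKM in denervated WT muscle, against 6.48 and 3.61 FPKM in innervated WT muscle. The groups did not overlap, although the first denervated library stood far above the second. The log2 fold change was 2.36 ± 0.58 (edgeR adjusted p = 0.0283), and the runs gave 2.59 and 1.78. The innervated values rest on 172 and 72 fragments, and the call was lost when either innervated library was left out (edgeR adjusted p = 0.103 without the first and 0.169 without the second). In the tables Timp1 lies on the X chromosome (mm9, chrX:20425668-20498044), within bounds that it shares with Araf and Syn1. The strand setting of the counting is not given in the sources used here, so fragments of these 3 genes might be split between them. Araf, a kinase gene, stayed between 57.1 and 66.5 FPKM in all 6 libraries, and Syn1, which encodes the synaptic vesicle protein synapsin, was at 0.0982 FPKM or less.

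Timp2 shares its bounds (mm9, chr11:118162374-118216725) with Ddc8, so its fragments might be split in the same way. It had 51.2 and 28.8 FPKM in denervated WT muscle, against 63.1 and 44.7 FPKM in innervated WT muscle. These groups overlapped, and the log2 fold change of -0.37 ± 0.30 did not pass (edgeR adjusted p = 0.369). Its 95% interval ran from -1.09 to 0.34. Timp2 was above Timp1 in FPKM in every library. The ratio of Timp1 to Timp2 FPKM was 0.736 and 0.491 in DKO-labelled muscle, 0.739 and 0.41 in denervated WT muscle, against 0.103 and 0.0809 in innervated WT muscle.

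The promoters of the 2 called members are shown because they are the genes whose change passed the test. They come from RefSeq (GRCm38.p6), not the mm9 build of the tables, and run from 250 bases before to 50 bases after the gene's start. Of the 10 members, 6 have a promoter in that set. The Timp1 sequence is chrX:20869916-20870215 on the plus strand, and capitals mark TGAGTAA, the form of the AP-1 motif known from TIMP1. The Thbs2 sequence is chr17:14694213-14694512 on the minus strand, and capitals mark E-boxes (CANNTG), the motif that myogenic bHLH factors bind.
Timp1: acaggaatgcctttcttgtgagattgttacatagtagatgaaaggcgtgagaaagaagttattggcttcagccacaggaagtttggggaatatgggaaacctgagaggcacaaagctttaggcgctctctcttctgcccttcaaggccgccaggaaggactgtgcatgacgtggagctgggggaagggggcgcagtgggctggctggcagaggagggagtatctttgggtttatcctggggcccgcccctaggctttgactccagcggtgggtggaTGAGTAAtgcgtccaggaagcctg
Thbs2: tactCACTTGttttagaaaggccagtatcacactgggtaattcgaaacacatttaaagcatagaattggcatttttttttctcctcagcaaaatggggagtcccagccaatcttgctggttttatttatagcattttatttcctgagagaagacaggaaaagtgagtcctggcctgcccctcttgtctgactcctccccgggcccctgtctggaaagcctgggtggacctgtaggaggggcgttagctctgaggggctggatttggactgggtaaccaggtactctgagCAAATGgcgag
Both strands were searched for TGAGTAA, for the general AP-1 motif TGANTCA and for CANNTG, and none of the matches printed overlap. TGAGTAA begins at base 27 counted from the RefSeq start of Timp1 used here, and its place would shift with another start. Of 32851 promoters of this length, 2.68% hold it. The Thbs2 E-boxes begin 246 bases before the start and at base 40 after it, and 72.3% of promoters hold at least 1. TGANTCA, found in 7.81% of promoters, is in neither window. TGAGTAA was chosen with the sequence in view, and a match describes the letters only.

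Of the proteases, Mmp2 (mm9, chr8:95351226-95377319) had 29.6 and 10.5 FPKM in denervated WT muscle, against 54.7 and 33.1 FPKM in innervated WT muscle. The groups did not overlap, but the first denervated library was close to the second innervated one. The log2 fold change was -1.05 ± 0.54 (edgeR adjusted p = 0.18), and the runs gave -0.81 and -1.56. With the run as a block it was -1.17 ± 0.21 and passed (edgeR adjusted p = 0.00967). Mmp14, its activator (mm9, chr14:55050440-55060095), had 7.87 and 4.82 FPKM in denervated WT muscle, against 16.7 and 6.97 FPKM in innervated WT muscle. Here the first denervated library was above the second innervated one. Its log2 fold change of -0.82 ± 0.46 did not pass (edgeR adjusted p = 0.22), and with the run as a block it was -0.74 ± 0.21 and passed (edgeR adjusted p = 0.0391).

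Thbs2, which binds Mmp2 and helps clear it through an endocytic receptor (mm9, chr17:14802506-14831269), had 4.09 and 2.75 FPKM in denervated WT muscle, against 9.26 and 7.62 FPKM in innervated WT muscle. Both denervated libraries were below both innervated ones by a wide margin. The log2 fold change was -1.24 ± 0.29 (edgeR adjusted p = 0.0241), and the runs gave -1.13 and -1.39. The call was lost without the first or the second innervated library or the second denervated WT library (edgeR adjusted p = 0.141, 0.0989 and 0.0607). Its relative Thbs1, an activator of latent TGF-beta (mm9, chr2:117937657-117952869), had 6.43 and 8.11 FPKM in denervated WT muscle, against 8.38 and 11.7 FPKM in innervated WT muscle. The FPKM values only just failed to overlap, and values as CPM did overlap. Its log2 fold change was -0.39 ± 0.21 (edgeR adjusted p = 0.195), with a 95% interval from -0.89 to 0.11.

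Sparc, a collagen-binding protein (mm9, chr11:55208002-55233582), had the highest FPKM of the 10 in every library. It had 128 and 45.6 FPKM in denervated WT muscle, against 215 and 162 FPKM in innervated WT muscle. The groups did not overlap. The log2 fold change was -1.05 ± 0.52 (edgeR adjusted p = 0.166), and the runs gave -0.69 and -1.75. With the run as a block it was -1.22 ± 0.26 and passed (edgeR adjusted p = 0.0161). Tnc, which appears in injured and remodelling tissue (mm9, chr4:63620818-63708049), had the lowest FPKM of the 10 in every library. It had 1.33 and 0.659 FPKM in denervated WT muscle, against 2.69 and 0.605 FPKM in innervated WT muscle. The innervated libraries enclosed both denervated ones, and the log2 fold change of -0.65 ± 0.67 did not pass (edgeR adjusted p = 0.493).

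Fn1 (mm9, chr1:71632096-71699745) had 36.6 and 6.10 FPKM in denervated WT muscle, against 59.5 and 19.6 FPKM in innervated WT muscle. The first library was above the second in both groups by more than the group means differed, and the log2 fold change was -0.81 ± 0.87 (edgeR adjusted p = 0.508). Within runs the differences were -0.62 and -1.58, and with the run as a block the value was -1.04 ± 0.33 and remained above the threshold (edgeR adjusted p = 0.0535). Lox (mm9, chr18:52676891-52689362) had 9.04 and 6.52 FPKM in denervated WT muscle, against 6.29 and 2.33 FPKM in innervated WT muscle. These values did not overlap, by a small margin between the second denervated and the first innervated library. Its log2 fold change was 0.87 ± 0.46 (edgeR adjusted p = 0.197), and with the run as a block it was 0.99 ± 0.27 and passed (edgeR adjusted p = 0.0323).

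In the block fit 2 members were called higher (Timp1, Lox) and 4 lower (Mmp2, Mmp14, Thbs2, Sparc) in denervated WT muscle, where 17.4% of all genes were called higher and 19% lower. Groups that did not overlap on the CPM scale were found for 2 members above (Timp1, Lox) and 3 below (Mmp2, Thbs2, Sparc), where 35.1% and 35.5% of all genes did so. Within runs, 2 members were higher in both, 7 were lower in both and Tnc differed in direction. Of all genes, 39.7% were higher in both runs, 40.8% lower in both and 19.2% opposite.

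**Figure D2:**
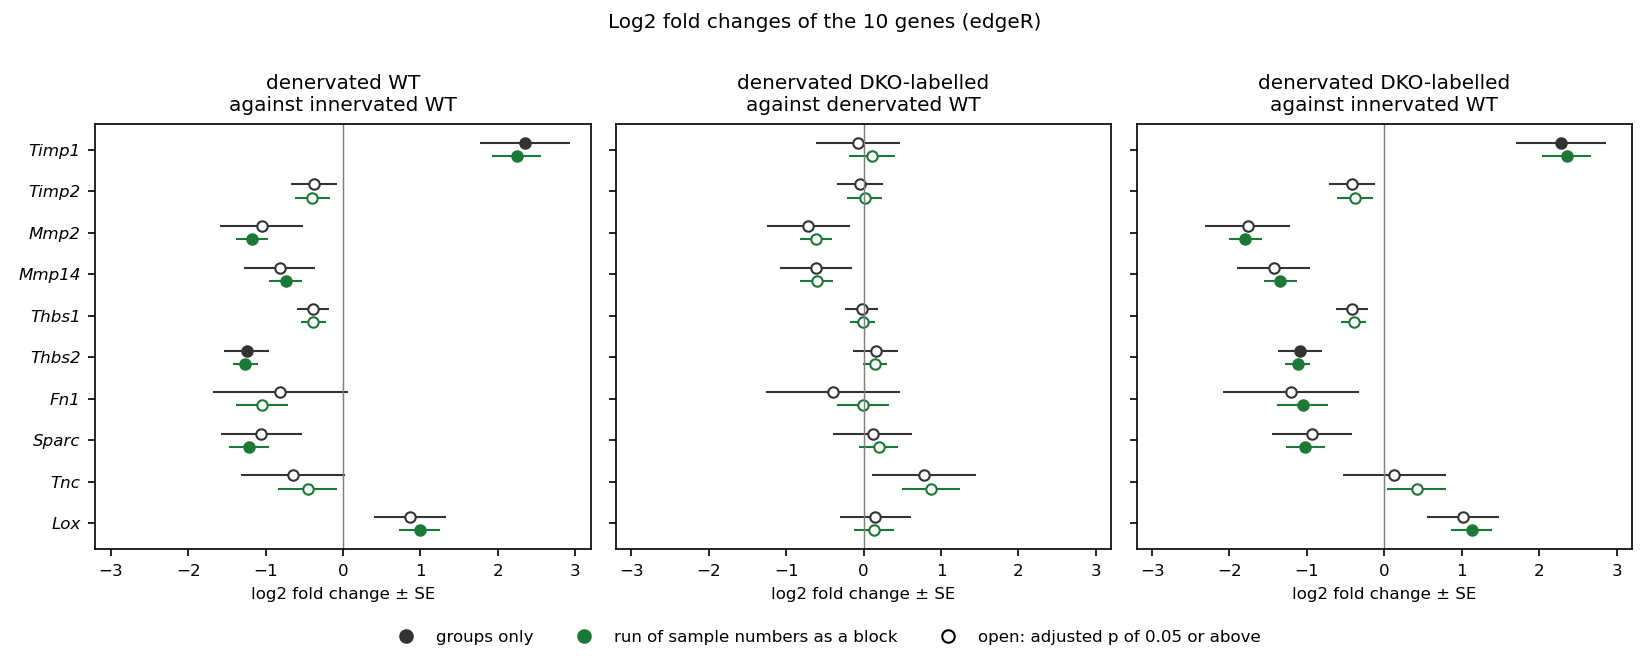
Log2 fold change ± SE (x axis) of the 10 genes in 3 comparisons, from edgeR with the groups alone (black) and with the run of sample numbers as a block (green); filled points have an adjusted p under 0.05. Timp1 (2.36) and Thbs2 (-1.24) are filled in both fits of the left panel, and no point is filled in the middle panel.

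Between the denervated groups, no member was called. The smallest unadjusted p was 0.225 (Mmp2, edgeR), so 0 of 10 were under 0.05 before adjustment, and DESeq2, limma and the block fit called none either. Among all genes 0.0245% were called higher and 0.0163% lower, 5 genes in all, and the block fit called 0.0245% and 0.00817%. Timp1 had 27.5 and 19.2 FPKM in DKO-labelled muscle, against 37.8 and 11.8 FPKM in denervated WT muscle, with a log2 fold change of -0.08 ± 0.54 and a 95% interval from -1.38 to 1.23. The DKO-labelled values lie between the WT ones. Thbs2 had 4.68 and 2.95 FPKM in DKO-labelled muscle, against 4.09 and 2.75 FPKM in denervated WT muscle, with a log2 fold change of 0.15 ± 0.29 and an interval from -0.53 to 0.84. The intervals of both genes thus leave room for changes of moderate size either way.

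The largest log2 fold changes of the 10 were those of Tnc, Mmp2 and Mmp14. Tnc had 2.01 and 1.35 FPKM in DKO-labelled muscle, against 1.33 and 0.659 FPKM in denervated WT muscle. It was the only member whose groups did not overlap on the CPM scale, where 14.2% of all genes lay wholly higher and 14.4% wholly lower. Its log2 fold change of 0.78 ± 0.67 did not pass (edgeR adjusted p = 0.971), with an interval from -0.84 to 2.39. Mmp2 had 15.6 and 8.23 FPKM in DKO-labelled muscle, against 29.6 and 10.5 FPKM in denervated WT muscle, a log2 fold change of -0.72 ± 0.53 (edgeR adjusted p = 0.968). Mmp14 had 4.97 and 3.12 FPKM in DKO-labelled muscle, against 7.87 and 4.82 FPKM in denervated WT muscle, a log2 fold change of -0.61 ± 0.46 (edgeR adjusted p = 0.968). Both proteases were lower in DKO-labelled muscle within each run, with log2 differences of -0.89 and -0.31 for Mmp2 and of -0.63 and -0.58 for Mmp14, but their groups overlapped.

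The other members were close between the denervated groups or differed in direction between runs. Timp2 had 37.3 and 39.1 FPKM in DKO-labelled muscle, against 51.2 and 28.8 FPKM in denervated WT muscle. Thbs1 had 7.09 and 7.14 FPKM in DKO-labelled muscle, against 6.43 and 8.11 FPKM in denervated WT muscle, and its interval was the narrowest of the 10, from -0.53 to 0.47. Sparc had 124 and 63.1 FPKM in DKO-labelled muscle, against 128 and 45.6 FPKM in denervated WT muscle. In each of these genes the DKO-labelled values lay within the range of the WT ones. Fn1, at 21.7 and 10.01 FPKM in DKO-labelled muscle, against 36.6 and 6.10 FPKM in denervated WT muscle, also lay within the WT range and had the widest interval, from -2.48 to 1.69. Lox had 10.5 and 6.93 FPKM in DKO-labelled muscle, against 9.04 and 6.52 FPKM in denervated WT muscle, a log2 fold change of 0.15 ± 0.46. Over both runs, 3 members were higher in each, 2 lower in each and 5 opposite in direction, where 44.9% of all genes were opposite.

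Against innervated WT muscle, the same innervated libraries serve as reference for DKO-labelled muscle, so this comparison is not independent of that of denervated WT muscle, and genotype and denervation cannot be told apart in it. Timp1 had 27.5 and 19.2 FPKM in DKO-labelled muscle, against 6.48 and 3.61 FPKM in innervated WT muscle, a log2 fold change of 2.28 ± 0.58 (edgeR adjusted p = 0.029). Thbs2 had 4.68 and 2.95 FPKM in DKO-labelled muscle, against 9.26 and 7.62 FPKM in innervated WT muscle, a log2 fold change of -1.09 ± 0.29 (edgeR adjusted p = 0.0322). These were the 2 members called, where 15.2% of all genes were called higher and 16.2% lower. Each call was lost without either innervated library or without the second DKO-labelled one, and that of Timp1 also without the first DKO-labelled one, at edgeR adjusted p-values from 0.0813 to 0.17 for Timp1 and from 0.108 to 0.173 for Thbs2.

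Mmp2 was just above the threshold in DKO-labelled against innervated WT muscle, with 15.6 and 8.23 FPKM against 54.7 and 33.1 FPKM and a log2 fold change of -1.76 ± 0.55 (edgeR adjusted p = 0.0507). Mmp14, with 4.97 and 3.12 FPKM in DKO-labelled against 16.7 and 6.97 FPKM in innervated WT muscle, had a log2 fold change of -1.43 ± 0.47 (edgeR adjusted p = 0.0601). Both passed when only the 4 libraries compared were fitted, in DESeq2 and in the block fit (edgeR adjusted p = 0.00283 for Mmp2 and 0.00635 for Mmp14). Groups that did not overlap on the CPM scale were found for 2 members above and 6 below, where 38.3% and 38.1% of all genes did so. The block fit called 2 members higher (Timp1, Lox) and 5 lower (Mmp2, Mmp14, Thbs2, Fn1, Sparc), where it called 18.3% of all genes higher and 20.1% lower. Lox had a log2 fold change of 1.02 ± 0.47 with the groups alone (edgeR adjusted p = 0.138) and of 1.13 ± 0.27 with the block (edgeR adjusted p = 0.0207). For Sparc the edgeR adjusted p was 0.207 with the groups alone and 0.0247 with the block, and for Fn1 it was 0.329 and 0.0497.

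The levels of an inhibitor and of the proteases in the same library were set against each other after their values had been seen, so the ratios are a description without a test. The ratio of Timp1 to Mmp2 FPKM was 1.76 and 2.33 in DKO-labelled muscle, 1.28 and 1.13 in denervated WT muscle, against 0.118 and 0.109 in innervated WT muscle. The libraries of a group agree more closely in this ratio than in either gene alone, and the lowest of the 4 denervated values is far above the innervated ones. For Timp1 to Mmp14 the ratio was 5.53 and 6.14 in DKO-labelled muscle, 4.80 and 2.46 in denervated WT muscle, against 0.388 and 0.518 in innervated WT muscle. Timp2 to Mmp2 gave 2.40 and 4.75 in DKO-labelled muscle, 1.73 and 2.75 in denervated WT muscle, against 1.15 and 1.35 in innervated WT muscle. Here too every denervated library was above both innervated ones. Timp2 to Mmp14 gave 7.51 and 12.5 in DKO-labelled muscle, 6.5 and 5.98 in denervated WT muscle, against 3.78 and 6.40 in innervated WT muscle, and there the WT groups overlapped. Thbs1 to Thbs2 gave 1.51 and 2.42 in DKO-labelled muscle, 1.57 and 2.95 in denervated WT muscle, against 0.906 and 1.53 in innervated WT muscle. The DKO-labelled and innervated groups thus overlapped, and the lower denervated WT value was only just above the higher innervated one.

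**Figure D3:**
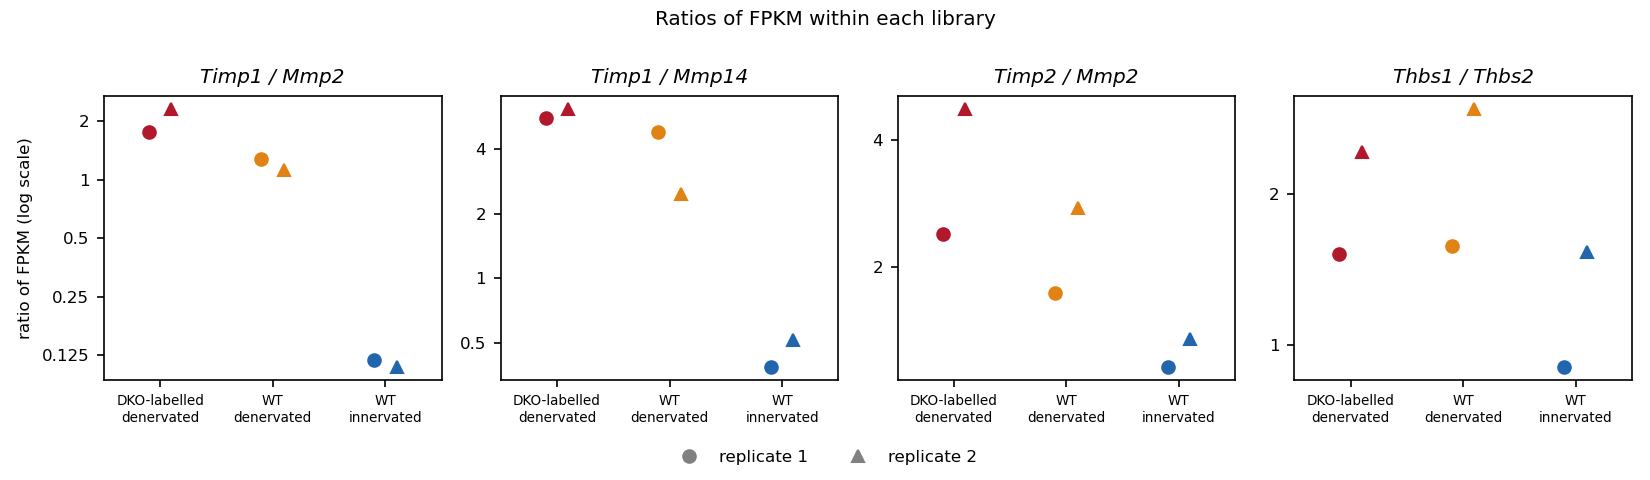
Ratio of the FPKM of 2 genes within each library (y axis, log scale) in the DKO-labelled denervated, WT denervated and WT innervated libraries; circles are the first library of a group and triangles the second. Timp1 to Mmp2 lies between 1.13 and 2.33 in the denervated libraries and at 0.109 and 0.118 in the innervated ones.

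The 2 libraries of a group differed for most members in the same direction. On log2 CPM, the first library was above the second for 8 of 10 members in DKO-labelled muscle, 9 of 10 in denervated WT muscle and 9 of 10 in innervated WT muscle. The medians of that difference were 0.62, 0.91 and 0.79 in the same groups, beside 0.00, 0.01 and -0.01 over all genes tested. The difference was widest for Fn1, at 1.10 in DKO-labelled, 2.57 in denervated WT and 1.62 in innervated WT muscle, and for Tnc in innervated WT muscle, at 2.16. Thbs1 ran the other way in all 3 groups, at -0.03, -0.35 and -0.47. Of all genes, 4.5%, 10.4% and 2.06% had a difference above 1 in size, in either direction, in DKO-labelled, denervated WT and innervated WT muscle, against 1, 4 and 4 of the 10 members.

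Medians of several other lists differed between the libraries of a group as well. The fibroblast and fibro-adipogenic markers had a median difference between the first and the second library of 0.23 in DKO-labelled, 1.36 in denervated WT and 0.35 in innervated WT muscle. For collagens and basement membrane genes it was 1.08, 1.15 and 0.16 in these groups, for macrophage markers 0.98, 0.55 and 0.44, and for tendon markers 0.24, 1.23 and 0.29. Endothelial markers gave 0.51, 0.14 and -0.20. The part of these cells in the members' differences was not tested.

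**Figure D4:**
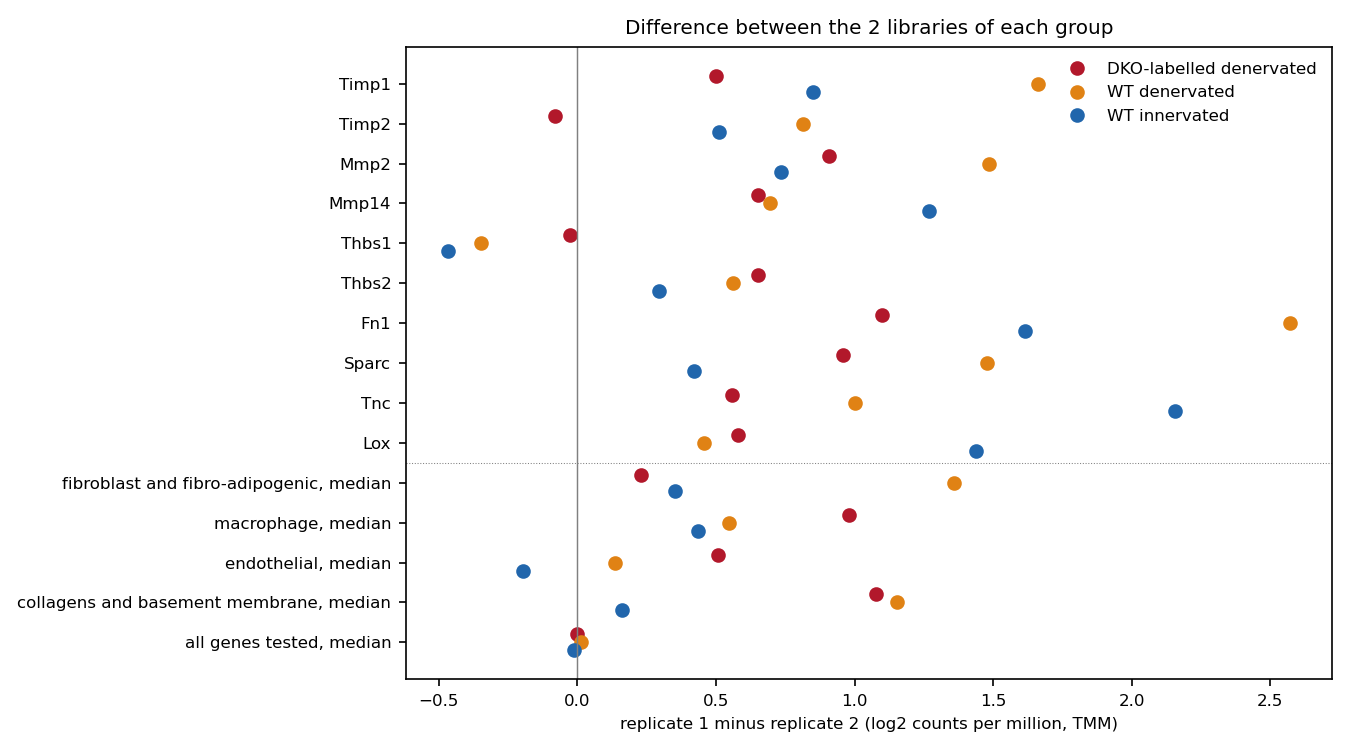
Difference between the first and the second library of each group in log2 CPM (x axis) for the 10 genes and, under the dotted line, the medians of 4 gene lists and of all genes tested. Points right of 0 are higher in the first library; Fn1 in denervated WT muscle reaches 2.57, while the medians of all genes lie between -0.01 and 0.01.

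Genes with the most similar profile were found by the root mean square difference of centred log2 CPM over the 6 libraries. The search passed over the members, entries that join several symbols, and predicted or unnamed transcripts. Fn1 was closest to Col5a2, a fibrillar collagen gene (0.233), and Mmp14 to Eln, which encodes elastin (0.174). Mmp2 was closest to F2rl3 (0.19), Timp1 to Camk2n2 (0.27) and Lox to Lpxn (0.187). Thbs2 had the smallest distance, to Parp14 (0.0664), followed by Timp2 with Tifa (0.071) and Thbs1 with Stox2 (0.0719). The distance also depends on how much a gene varies over the libraries. The members' own root mean square spread ran from 0.25 for Thbs1 to 1.2 for Timp1. It was 0.337 for Timp2 and 0.621 for Thbs2, so the distances do not rank how well the genes match. Sparc was closest to Nedd4l (0.128) and Tnc to Bbs10 (0.309). Among the members themselves, the nearest to each other were Thbs2 and Sparc (0.286) and Mmp2 and Mmp14 (0.359), while Timp1 was no nearer than 0.668 to any other.

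Other genes of matrix turnover were counted in 9 lists that leave out the 10 members. Over all genes tested, edgeR called 14.4% higher and 14.3% lower in denervated against innervated WT muscle, and the block fit 17.4% and 19%. The counts of each list are to be read beside these shares. In denervated against innervated WT muscle, 1 of 6 tested matrix metalloproteinases rose and 0 fell, of 21 in the list, and the block fit called 1 higher and 1 lower. Mmp19, a secreted protease, had 3.46 and 2.51 FPKM in denervated WT muscle, against 1.67 and 0.891 FPKM in innervated WT muscle, a log2 fold change of 1.31 ± 0.35 (edgeR adjusted p = 0.0346). Of 16 tested ADAMTS and ADAM proteases, 2 fell and 0 rose, and the block fit called 5 lower and 1 higher. Adamts8 had 0.453 and 0.272 FPKM in denervated WT muscle, against 2.34 and 2.85 FPKM in innervated WT muscle, a log2 fold change of -2.74 ± 0.37 (edgeR adjusted p = 0.0059). Adamts1, which cleaves the proteoglycan versican, fell by 1.56 on the log2 scale (edgeR adjusted p = 0.0181).

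Of 6 tested protease inhibitors beside Timp1 and Timp2, 2 fell and 0 rose in denervated WT muscle. With 14.4% of all genes called higher, 0 of 6 is near the background. The 2 of 6 that fell stand beside 14.3% of all genes called lower. The block fit also called 0 higher and 2 lower, beside 17.4% and 19% of all genes. Timp3, the inhibitor that stays bound to the matrix, had 18.1 and 21.0 FPKM in denervated WT muscle, against 30.5 and 39.2 FPKM in innervated WT muscle, a log2 fold change of -0.81 ± 0.19 (edgeR adjusted p = 0.0238). Reck, a membrane-anchored inhibitor of metalloproteinases, fell by 1.38 on the log2 scale (edgeR adjusted p = 0.0265). In the plasminogen system, 2 of 5 tested genes fell and 0 rose in denervated WT muscle, and the block fit called 3 lower. Serpine2, 1 of the 2 that fell, encodes an inhibitor of serine proteases. It had 26.4 and 16.2 FPKM in denervated WT muscle, against 73.6 and 65.7 FPKM in innervated WT muscle. Its log2 fold change was -1.65 ± 0.25 (edgeR adjusted p = 0.00764).

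Of 18 tested matricellular genes outside the 10, 1 rose and 3 fell in denervated WT muscle, and the median log2 fold change was -0.93. Spp1, which encodes osteopontin, had 19.7 and 10.7 FPKM in denervated WT muscle, against 5.35 and 5.6 FPKM in innervated WT muscle, a log2 fold change of 1.53 ± 0.32 (edgeR adjusted p = 0.018). Nov, of the CCN family, had 1.85 FPKM in both denervated WT libraries, against 10.6 and 6.11 FPKM in innervated WT muscle, and fell by 2.17 (edgeR adjusted p = 0.00612). Sparcl1, a relative of Sparc, fell by 0.99, and Smoc2 by 0.86 (edgeR adjusted p = 0.0198 and 0.0238). With the run as a block, 2 of the 18 were called higher and 9 lower. For lysyl oxidases and procollagen processing, 1 of 11 tested genes rose and 0 fell. That gene, P4ha2, a subunit of the prolyl hydroxylase that modifies collagen, rose by 0.62 on the log2 scale (edgeR adjusted p = 0.0455), and the block fit called 1 higher and 4 lower.

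Among 14 tested receptors of the members, 3 rose and 1 fell in denervated WT muscle, and the block fit called 4 higher and 2 lower. Cd63, a tetraspanin that binds Timp1 at the cell surface, had 331 and 358 FPKM in denervated WT muscle, against 118 and 117 FPKM in innervated WT muscle. The libraries of each group were close, and the log2 fold change was 1.59 ± 0.15 (edgeR adjusted p = 0.00247). Itgb1, the integrin beta subunit shared by fibronectin receptors, rose by 0.75, and Itga9, part of a tenascin C receptor, by 0.67 (edgeR adjusted p = 0.0184 and 0.0339). Cacna2d1, to which thrombospondins bind, fell by 0.73 (edgeR adjusted p = 0.0365).

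In TGF-beta signalling, 4 of 15 tested genes rose and 1 fell in denervated WT muscle. Tgfbr1, the type I receptor, had 14.2 and 16.7 FPKM in denervated WT muscle, against 5.80 and 5.03 FPKM in innervated WT muscle, a log2 fold change of 1.5 ± 0.22 (edgeR adjusted p = 0.00703). Skil, a repressor of Smad activity, rose by 1.06, and Ltbp3, which binds latent TGF-beta, by 1.01 (edgeR adjusted p = 0.00774 and 0.0061). Its relative Ltbp4 fell by 1.70 (edgeR adjusted p = 0.0218). Of 21 tested collagens and basement membrane genes, 1 rose (Lama5, by 0.81) and 3 fell (Lamb1, Nid1 and Lama2), with a median of -1.34. The block fit called 1 of these 21 higher and 19 lower.

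**Figure D5:**
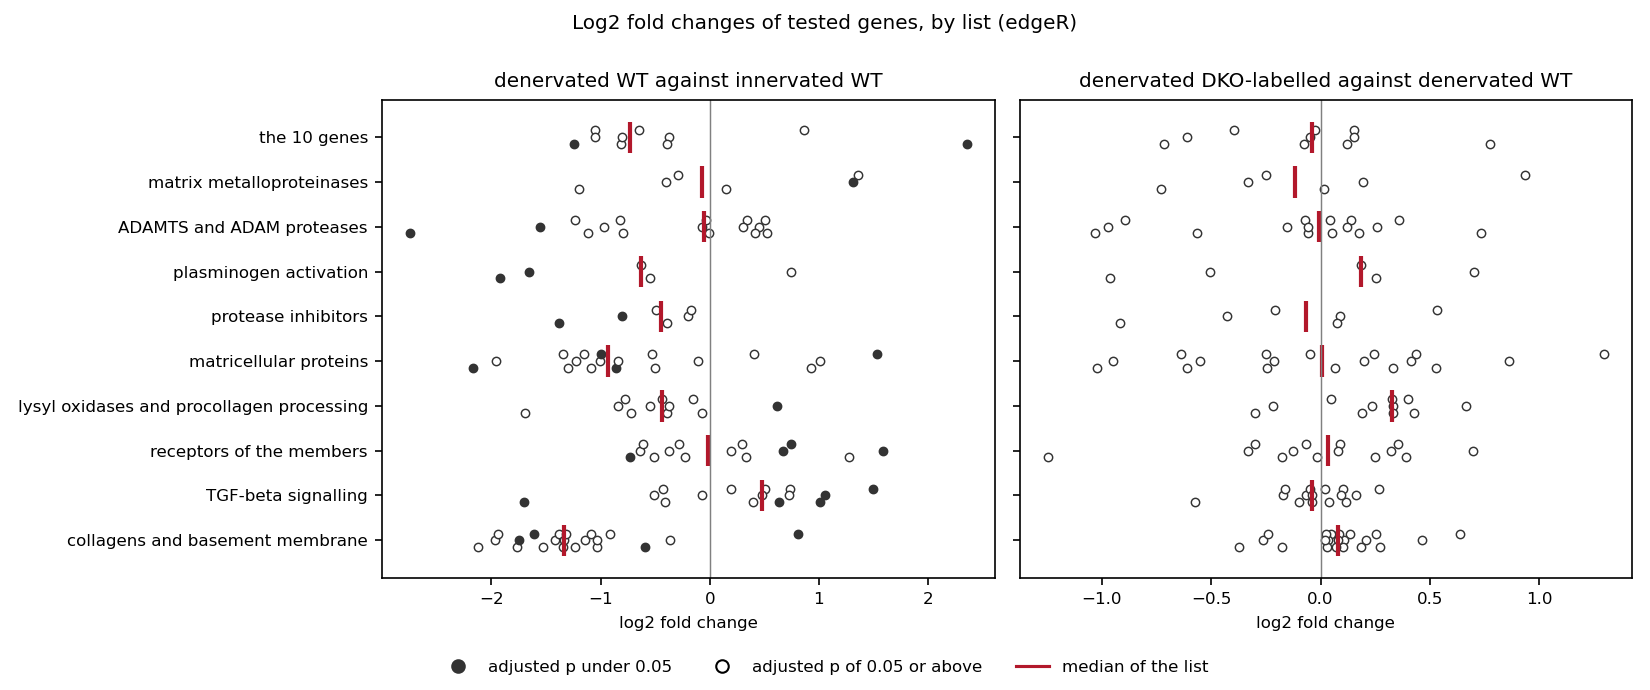
Log2 fold change (x axis) of each tested gene of the 10 members and of 9 other lists, in denervated against innervated WT muscle (left) and in DKO-labelled against WT muscle, both denervated (right); filled points have an edgeR adjusted p under 0.05 and red bars are list medians. Collagens and basement membrane genes have a median of -1.34 on the left, and no point is filled on the right.

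Between the denervated groups, edgeR called 0 genes in each of the 9 lists, and 0.0245% of all genes higher and 0.0163% lower. The list medians ran from -0.12 for matrix metalloproteinases to 0.33 for lysyl oxidases and procollagen processing, beside -0.02 for all genes tested. Against innervated WT muscle, DKO-labelled muscle had more Mmp19 (log2 fold change 1.5 ± 0.35), Cd63 (1.95 ± 0.15), Spp1 (2.83 ± 0.33) and Tgfbr1 (1.76 ± 0.23), and less Timp3 (-1.23 ± 0.19), Serpine2 (-1.47 ± 0.25) and Adamts8 (-3.72 ± 0.40). Each of these passed the edgeR test, at adjusted p-values from 0.00124 for Cd63 to 0.0216 for Mmp19. Of all genes, 15.2% were called higher and 16.2% lower here. Calls higher and lower were 1 and 2 of 6 tested matrix metalloproteinases and 1 and 2 of 16 ADAMTS and ADAM proteases. Plasminogen genes gave 0 and 2 of 5, protease inhibitors 0 and 1 of 6, and matricellular genes 2 and 3 of 18. Lysyl oxidases and procollagen processing gave 1 and 2 of 11, receptors 2 and 3 of 14, and TGF-beta signalling 3 and 2 of 15. Collagens and basement membrane genes gave 0 and 3 of 21. Itga9 was called in opposite directions in the 2 denervated groups against innervated WT muscle, and was singled out after its values were seen. It had 3.19 and 4.16 FPKM in DKO-labelled muscle, 9.47 and 9.73 FPKM in denervated WT muscle and 6.97 and 6.07 FPKM in innervated WT muscle.

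Markers of several cell types differed between the groups beside these genes. In denervated against innervated WT muscle, edgeR called 14.4% of all genes higher and 14.3% lower, and the block fit 17.4% and 19%. Of 10 fibroblast and fibro-adipogenic markers, 4 fell and 0 rose in denervated against innervated WT muscle, and the block fit called 6 lower. Their summed level was 638 to 680 FPKM in DKO-labelled, 674 to 912 FPKM in denervated WT and 1474 to 1563 FPKM in innervated WT muscle. Without Gsn it was 424 to 462 in DKO-labelled, 402 to 553 in denervated WT and 751 to 899 FPKM in innervated WT muscle. Pdgfra, which defines these cells, had 5.64 and 4.65 FPKM in DKO-labelled, 5.81 and 3.89 FPKM in denervated WT and 6.63 and 4.65 FPKM in innervated WT muscle. Of 6 tendon markers, 4 fell and Scx rose, and their sum was 106 to 121 FPKM in DKO-labelled, 95.8 to 98.6 FPKM in denervated WT and 132 to 151 FPKM in innervated WT muscle. Without Scx the sum was 48.5 to 63.4 FPKM in DKO-labelled, 17.5 to 41.6 FPKM in denervated WT and 115 to 137 FPKM in innervated WT muscle. All 8 endothelial markers fell in denervated WT muscle, with sums of 60.5 to 85.6 FPKM in DKO-labelled, 75.0 to 82.8 FPKM in denervated WT and 164 to 197 FPKM in innervated WT muscle. Of 11 macrophage markers tested, 1 rose (Cd68, by 1.58) and 0 fell, and the block fit called 2 higher. The sum was 216 to 367 FPKM in DKO-labelled, 279 to 369 FPKM in denervated WT and 209 to 312 FPKM in innervated WT muscle. Without Lyz2 it was 139 to 220 in DKO-labelled, 139 to 189 in denervated WT and 116 to 140 FPKM in innervated WT muscle.

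Of 7 tested pericyte and smooth muscle markers, 5 fell and 0 rose in denervated WT muscle. Their summed level was 1762 to 2019 FPKM in DKO-labelled, 1935 to 2176 FPKM in denervated WT and 2120 to 2375 FPKM in innervated WT muscle, most of it from Des, which muscle fibres also express. Without Des it was 64.7 to 89.3 FPKM in DKO-labelled, 72.3 to 87.5 FPKM in denervated WT and 170 to 175 FPKM in innervated WT muscle. For Schwann cells 5 of 8 tested markers fell and Ngfr rose (2 higher in the block fit), with sums of 43.6 to 46.0 FPKM in DKO-labelled, 45.9 to 48.3 FPKM in denervated WT and 102 to 104 FPKM in innervated WT muscle. Of 5 tested satellite cell markers, Cdh15 rose and 0 fell, with sums of 65.4 to 88.6 FPKM in DKO-labelled, 50.1 to 83.0 FPKM in denervated WT and 48.7 to 51.8 FPKM in innervated WT muscle. Most of that sum is Itga7, and without it the sum was 21.1 to 24.4 FPKM in DKO-labelled, 14.4 to 17.9 FPKM in denervated WT and 10.96 to 11.1 FPKM in innervated WT muscle. Pax7, which defines these cells, had 0.619 and 0.45 FPKM in DKO-labelled, 0.41 and 0.383 FPKM in denervated WT and 0.803 and 0.628 FPKM in innervated WT muscle. Of 4 tested neutrophil markers, S100a8 rose and 0 fell, and the sum was 94.1 to 121 FPKM in DKO-labelled, 30.9 to 73.7 FPKM in denervated WT and 5.68 to 13.8 FPKM in innervated WT muscle. Without S100a8 it was 2.87 to 7.94 FPKM in DKO-labelled, 5.68 to 15.8 FPKM in denervated WT and 3.52 to 8.08 FPKM in innervated WT muscle. The defining neutrophil gene Mpo is listed at 0 in 5 of the 6 libraries, and Elane is at 0.073 FPKM or less. Of 9 tested muscle fibre genes, 7 fell and 0 rose. For the pericyte, satellite cell, neutrophil and muscle fibre lists the block fit gave the same counts. Over all genes tested, 14.4% were called higher and 14.3% lower in denervated against innervated WT muscle. The single calls among 5 satellite cell and 4 neutrophil markers are thus near the background. The part of these cells in the changes of the 10 genes was not tested.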

How the data were processed

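Polyadenylated RNA of mouse soleus was sequenced in 6 libraries. Groups follow the sample titles, which give no replicate numbers, so libraries were numbered in accession order. The submitters' processing notes name Bowtie2 2.0.0.7, CASAVA 1.8.2, Cuffdiff 2.0.2, TopHat2 2.0.3, Trim Galore 0.2.1 and build mm9, without roles. The annotation used and whether counting was stranded is not given in the sources used here. The deposited tables hold FPKM, a signal of externally scaled fragments, and raw fragments, which are estimated counts, per the file headers. The signal was each library's deposited fragments times 1 factor. FPKM carries the authors' library scaling, so it is no share of a library's total. Each gene is listed 3 times in 65415 lines. These repeats were dropped, and entries of 1 symbol were summed.

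Counts were rounded and tested with edgeR 4.0.16 (R 4.3.3): quasi-likelihood, TMM scaling, all 6 libraries, group means, genes of mean FPKM of at least 0.5 (12247), Benjamini-Hochberg adjustment, two-sided, threshold 0.05, 3 residual degrees of freedom. The common coefficient of biological variation was 0.222. The 2 libraries within a group differed by more than sampling noise (chi-square per degree of freedom 68 in DKO-labelled, 172 in denervated WT and 33.2 in innervated WT muscle). Alternatives were DESeq2 1.42.0, limma 3.58.1 on log2(FPKM + 0.5) and log2(FPKM + 1), upper-quartile scaling, other filters on low values, the 4 libraries compared alone, each library left out, and the run of sample numbers as a block. The members and gene lists were chosen with earlier results of these data known. In each list and comparison up to 4 called genes of largest change are named, except for results that are not reported here. Col6a3 and Ly6g are not analysed here, and Adgre1 was analysed under its older symbol Emr1.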

Additional observations from a re-analysis of the deposited data

How the results depend on the processing

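Precision rests on 2 libraries a group, and for Timp1 on 172 and 72 fragments in innervated WT muscle. In each comparison, 139 log2 fold changes of the members were recomputed. Direction and side of the threshold were kept by 124 in denervated against innervated WT muscle. The count was 121 in DKO-labelled against denervated WT and 112 in DKO-labelled against innervated WT muscle. Part of this was set in advance. Leaving out a DKO-labelled library hardly touches denervated against innervated WT muscle, where Timp1 stayed at 2.36. Between the denervated groups, the lowest edgeR adjusted p of the members was 0.968, far from the threshold. In denervated WT against innervated WT muscle, fitting the run of sample numbers as a block called 2 members higher and 4 lower, against 1 and 1 without it. In DKO-labelled against innervated WT muscle the block called 2 higher and 5 lower, while members called lower, 1 at first, were 3 with DESeq2, 3 without the filter on low values, 3 with only the 4 libraries compared, and 2 with limma at either pseudocount. The block's pairing was looked at through deviations from group means, which correlated over 12247 genes at 0.426 (DKO-labelled and denervated WT), 0.143 (DKO-labelled and innervated WT) and 0.212 (denervated and innervated WT). In DKO-labelled against denervated WT muscle the count of all genes called, 5 at first, was 182 with DESeq2, 2 with upper-quartile scaling, 60 without the filter, 2 at a mean FPKM of at least 2 (where Tnc was not tested), 35 and 34 with limma at pseudocounts of 0.5 and 1, and 0 with only the 4 libraries. Members called there were 0 throughout. Near-zero log2 fold changes turned sign there: Thbs1 to 0.021 with upper-quartile scaling, Timp1 to 0.11 and 0.10 with limma and to 0.11 with the block, and Timp2 to 0.016 with the block. The cause was not tested.

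With each library left out in turn, a group left with 1 library was assumed to vary like the others. In denervated WT against innervated WT muscle, 0 to 1 members were then called higher, 0 to 5 lower, and 202 to 5357 of all genes. The 5 lower were reached without the first denervated WT library, when Timp2, Mmp2, Fn1 and Sparc joined Thbs2. Timp1 ran from 1.27 to 2.95, Mmp2 from -1.99 to -0.49, Mmp14 from -1.32 to -0.04, Sparc from -1.98 to -0.50, Lox from 0.32 to 1.77, Fn1 from -2.62 to 0.22 and Tnc from -1.35 to 0.82. In DKO-labelled against denervated WT muscle 0 to 119 of all genes were called. Log2 fold changes there ran from -0.68 to 0.995 for Timp1, -0.40 to 0.42 for Timp2, -1.27 to 0.22 for Mmp2, -0.19 to 0.16 for Thbs1, -0.21 to 0.47 for Thbs2, -1.17 to 1.41 for Fn1, -0.44 to 1.05 for Sparc and -0.17 to 0.41 for Lox. In DKO-labelled against innervated WT muscle 0 to 1 members were called higher, 0 to 3 lower, and 661 to 5517 of all genes, and Tnc ran from -0.57 to 1.59.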
